A study of Mus musculus with 12 samples.

Results

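The data are 4 of the 12 libraries of a CUT&Tag study of mouse mammary tumour organoids, namely the H3K4me3 libraries labelled Ctrl (2 replicates) and THC (2 replicates). The members are the peak lists of these libraries on chromosomes 1 to 19 and X, which merged into 21807 regions. The organoids were derived from PyMT tumours, in which the polyoma middle T oncogene drives breast cancer, and are also called tumoroids or spheroids in the labels. Both groups carry the genotype given as WT and were taken 3 days after treatment, the first with a control treatment that the labels do not describe and the second with a compound that the labels give only as THC. Each library came from 500000 cells, and replicates 1 and 2 are labelled batches 1 and 2, so each batch holds 1 Ctrl and 1 THC library. The labels do not say whether the replicates are separate cultures or animals, so each p-value rests only on how these samples vary, and that variation may be technical. The series is named for the cannabinoid receptor CB2R and for luminal differentiation and plasticity, and the comparison asks where H3K4me3 differed after THC.

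H3K4me3, the trimethylation of lysine 4 of histone H3, is laid down by SET1 and MLL complexes around the starts of active and poised genes. CpG-rich promoters carry it almost always in cells where they are unmethylated, and very broad H3K4me3 domains are known for marking genes of cell identity. CUT&Tag tethers a transposase to the antibody-bound mark and cuts adapters into the DNA there, so the peaks show where the mark gave enough fragments to rise above the background. A peak list therefore records presence, the bp covered and the strength of a peak within its own library, but not an absolute amount of the mark.

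The promoters below were chosen to show the kinds of start called control-only from here on, which carried a peak in each Ctrl library but in no THC library. Here and below, a start counts as marked by a region within 1 kb of it. The first 4 belong to the control-only coding genes with the most covered bp in Ctrl. Krt8 and Epcam are epithelial genes whose starts had a region within 1 kb that was marked in all 4 libraries. The Epcam region, chr17:87636411-87637557, begins downstream of the window printed here. Each sequence holds 250 bases before and 50 after the RefSeq start on GRCm38.p6, the assembly of mm10, read 5′ to 3′ on the strand of the gene. Capitals mark every match, on either strand, to 5 motifs, and matches may overlap. The TATA box was searched as TATAAA and the CCAAT box by the letters of its name. The GC box was searched as GGGCGG. The E box was searched as CACGTG, and the binding motif of AP-1 as TGACTCA.
Wnt3a (chr11:59290702-59291001, minus strand): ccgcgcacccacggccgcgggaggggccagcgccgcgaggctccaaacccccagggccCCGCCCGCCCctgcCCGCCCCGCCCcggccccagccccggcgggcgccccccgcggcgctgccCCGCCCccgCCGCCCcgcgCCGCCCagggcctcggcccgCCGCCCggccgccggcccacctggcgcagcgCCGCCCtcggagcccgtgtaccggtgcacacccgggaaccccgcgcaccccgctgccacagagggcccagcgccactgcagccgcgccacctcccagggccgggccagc
Ssbp4 (chr8:70608265-70608564, minus strand): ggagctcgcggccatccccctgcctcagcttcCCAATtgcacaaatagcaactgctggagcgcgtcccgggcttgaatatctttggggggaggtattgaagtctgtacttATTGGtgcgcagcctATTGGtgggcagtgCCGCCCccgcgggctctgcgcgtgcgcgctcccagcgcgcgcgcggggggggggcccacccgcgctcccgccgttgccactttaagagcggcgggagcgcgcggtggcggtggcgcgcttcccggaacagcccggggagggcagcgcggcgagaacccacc
Mgst1 (chr6:138141337-138141636, plus strand): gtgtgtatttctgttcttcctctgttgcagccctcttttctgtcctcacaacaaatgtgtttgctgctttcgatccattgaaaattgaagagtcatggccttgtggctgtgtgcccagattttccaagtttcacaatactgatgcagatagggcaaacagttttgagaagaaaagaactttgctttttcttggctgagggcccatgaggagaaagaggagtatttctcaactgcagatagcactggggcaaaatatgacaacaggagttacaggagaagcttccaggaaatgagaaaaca
Foxn1 (chr11:78386559-78386858, minus strand): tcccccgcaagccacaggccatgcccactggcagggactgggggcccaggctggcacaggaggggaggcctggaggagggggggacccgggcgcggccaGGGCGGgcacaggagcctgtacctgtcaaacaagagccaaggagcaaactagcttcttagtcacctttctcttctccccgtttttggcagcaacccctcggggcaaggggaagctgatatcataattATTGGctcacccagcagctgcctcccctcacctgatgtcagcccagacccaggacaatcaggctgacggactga
Krt8 (chr15:102004293-102004592, minus strand): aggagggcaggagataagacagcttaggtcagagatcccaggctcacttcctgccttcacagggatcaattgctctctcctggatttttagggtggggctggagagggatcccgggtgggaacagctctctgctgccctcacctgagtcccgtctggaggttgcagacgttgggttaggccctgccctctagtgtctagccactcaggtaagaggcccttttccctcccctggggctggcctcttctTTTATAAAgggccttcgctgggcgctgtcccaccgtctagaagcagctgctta
Epcam (chr17:87635729-87636028, plus strand): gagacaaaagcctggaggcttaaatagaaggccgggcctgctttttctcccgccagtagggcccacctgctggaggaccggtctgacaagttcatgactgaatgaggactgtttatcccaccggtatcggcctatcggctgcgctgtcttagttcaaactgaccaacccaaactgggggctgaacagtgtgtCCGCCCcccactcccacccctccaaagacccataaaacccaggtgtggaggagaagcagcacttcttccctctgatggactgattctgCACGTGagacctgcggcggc

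Control-only promoters were of several kinds. The window of Wnt3a, a secreted Wnt ligand, held 45 CpG and 9 GC boxes, some of them overlapping, and that of Ssbp4, a single-stranded DNA binding protein, held 35 CpG and 3 CCAAT boxes. The window of Mgst1, a microsomal glutathione transferase, held 1 CpG and none of the motifs, and that of Foxn1, a transcription factor of skin and thymus epithelium, held 8 CpG. Krt8, the keratin of simple and luminal epithelium, held 6 CpG, so a start with few CpG also occurred among those marked in all 4 libraries. The window of Epcam, an epithelial adhesion protein, held 11 CpG and lay outside its region. The 2 TATAAA matches of Krt8 overlap each other on opposite strands.

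The THC libraries held fewer and shorter H3K4me3 peaks than the Ctrl libraries. The Ctrl lists had 18383 and 16442 peaks (replicates 1 and 2) and the THC lists 11924 and 13227. The mean was 17412.5 ± 1372 in Ctrl and 12575.5 ± 921 in THC (SD, n = 2), a ratio of 0.722, with 0.649 in batch 1 and 0.804 in batch 2. Peaks covered 18.6 and 16.2 Mb in Ctrl against 9.02 and 12.3 Mb in THC, a ratio of 0.614, with 0.485 in batch 1 and 0.763 in batch 2. The mean peak length was 1012 and 983 bp in Ctrl and 756 and 933 bp in THC. The groups did not overlap in any of these 3 measures, and THC was lower in both batches. The exact two-sided permutation p was 0.333 for each, the smallest that 2 against 2 libraries allow.

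Peak strength moved with the groups. The summit pileup, the count of overlapping fragments at the top of a peak, was solved from the fold enrichment and −log10 p of each peak. Over the 10203 regions marked in all 4 libraries its median was 127 and 95 in Ctrl and 23 and 53 in THC, while the median fold enrichment over background was 10.1 and 9.90 in Ctrl and 6.84 and 7.99 in THC. The lowest background pileup of a library, which scales with its depth, was 1.05 and 1.02 in Ctrl and 0.752 and 1.52 in THC. THC replicate 2 thus had the highest background of the 4 libraries and a summit pileup below both Ctrl libraries, and THC replicate 1 was lowest in both. Peak lists do not give the read depth. The part of depth and of peak strength in the results below was not tested, and fewer marked cells and less mark per cell cannot be told apart in these bulk libraries.

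**Figure D1:**
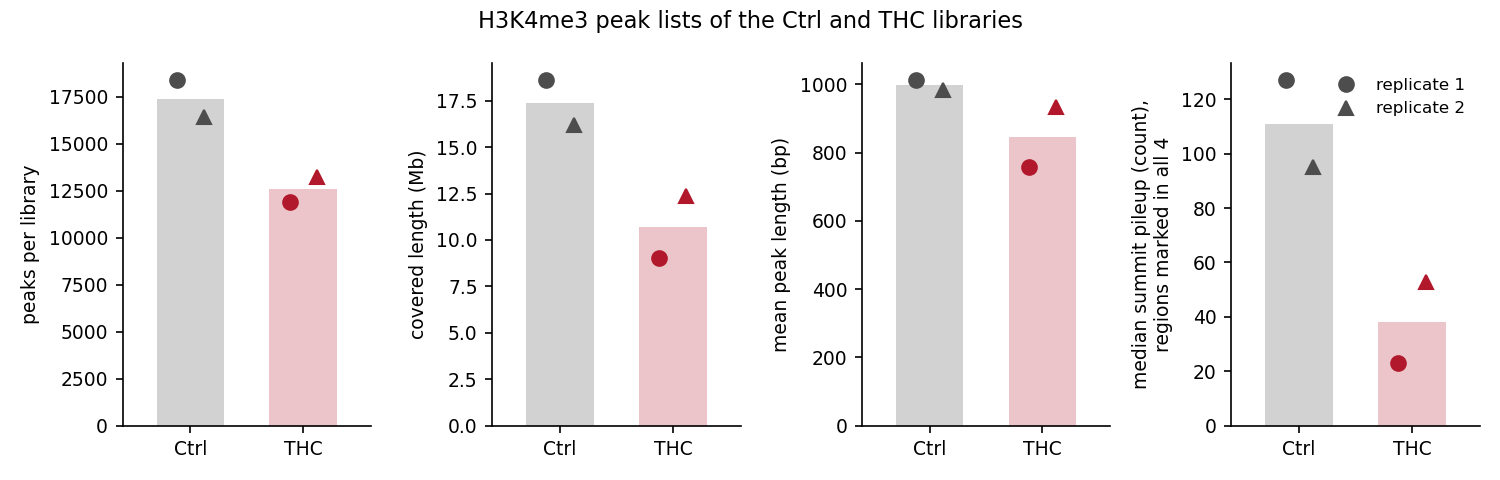
Peaks per library, covered length (Mb), mean peak length (bp) and median summit pileup (count) over the regions marked in all 4 libraries. Bars are group means and points are the libraries of replicate 1 (circles) and replicate 2 (triangles). Both THC libraries lie below both Ctrl libraries in each panel, with pileups of 23 and 53 against 127 and 95.

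Epithelial genes carried the mark in both groups. All 8 epithelial markers tested (Epcam, Cdh1, Krt8, Krt18, Krt19, Cldn3, Cldn4 and Cldn7) were marked in both Ctrl libraries, 6 of them in THC replicate 1 and 8 in THC replicate 2. Of the markers of other cell types, 1 of 7 for fibroblasts (Col1a1), 1 of 6 for endothelium (Kdr) and 1 of 8 for immune cells (Spi1) were marked in both Ctrl libraries, and 0 of 6 for adipocytes. The marker sums were 13493 and 12233 bp in Ctrl and 6020 and 10762 bp in THC for epithelium. Fibroblast sums were 1025 and 1045 bp against 292 and 360 bp, endothelial sums 897 and 559 bp against 0 and 0, and immune sums 612 and 296 bp against 0 and 0. Adipocyte sums went the other way, with 0 and 0 bp in Ctrl and 0 and 368 bp in THC. The part of these other cell types in the result was not tested, and Ptprc, Pecam1, Cdh5, Pdgfra, Dcn and Lum had no region in any of the 4 libraries.

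Presence differed almost entirely in 1 direction. Of the 14621 regions marked in both Ctrl libraries, 10203 had a peak in both THC libraries, 1675 only in replicate 2, 189 only in replicate 1, and 2554 (17.5%) in neither. The reverse, a peak in both THC libraries and in neither Ctrl library, held for 12 regions. Batch 1 had 10445 regions in both libraries, 7891 in Ctrl alone and 1020 in THC alone, and batch 2 had 11929, 4293 and 1027. THC thus kept 57.0% of the Ctrl regions of batch 1 and 73.5% of those of batch 2, against 79.7% of the replicate 1 regions found again in replicate 2 within Ctrl. Such shares also depend on which list is longer. In the reverse direction they were 91.1% and 92.1% of the THC regions in batches 1 and 2, and 90.1% within Ctrl. Within THC, 89.2% of the replicate 1 regions were found in replicate 2, and 79.0% the other way. These counts carry no test, and the count of control-only regions was 2743 without THC replicate 1, 4233 without THC replicate 2, 4210 without Ctrl replicate 1 and 6101 without Ctrl replicate 2. When each library was limited to its 11924 strongest peaks, the length of the shortest list, 347 regions were control-only and 42 were THC-only.

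Among regions that stayed, most were narrower in THC. In batch 1, 99.1% of the shared regions covered fewer bp in THC, with a median of 788 bp against 1272 bp. In batch 2 the share was 86.7%, with a median of 955 bp against 1135 bp. The median ratio of covered bp was 0.640 in batch 1 and 0.864 in batch 2, while replicate 2 to replicate 1 gave 0.941 within Ctrl, with 71.6% of shared regions narrower in replicate 2, and 1.25 within THC, with 12.6% narrower. The THC replicates thus lay farther apart than the Ctrl and THC libraries of batch 2. Binned by their breadth in the SR2 libraries, another treatment group of the series that the ratio does not use, regions of 500 to 750 bp had median ratios of 0.547 and 0.808 (batches 1 and 2). Regions of 1500 to 2000 bp had 0.704 and 0.908, and the 23 regions over 3000 bp had 0.595 and 0.903. Bins with very few regions were left out. The median ratio was below 1 in each of the 7 breadth bins kept, in both batches, and it was lower in batch 1 in each of them.

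Whether a region kept its peak followed its breadth in Ctrl. Regions with a mean of 300 to 500 bp in Ctrl were control-only in 78.4% of 1488 cases, and those of 500 to 750 bp in 43.5% of 2276. The share was 9.05% at 750 to 1000 bp, 1.78% at 1000 to 1500 bp and 0.285% at 1500 to 2000 bp, and none of the 688 regions of 2000 to 3000 bp or the 45 broader ones was control-only. Strength in Ctrl sorted the regions in the same direction. With the regions cut by Ctrl −log10 q into 10 bins of nearly equal size, 1257 of 1463 were control-only in the weakest bin, 318 in bin 3, 30 in bin 4, 2 in bin 5 and 0 in the 5 strongest bins. Breadth and strength in Ctrl are those of the libraries that define the control-only regions, so these shares are a description.

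**Figure D2:**
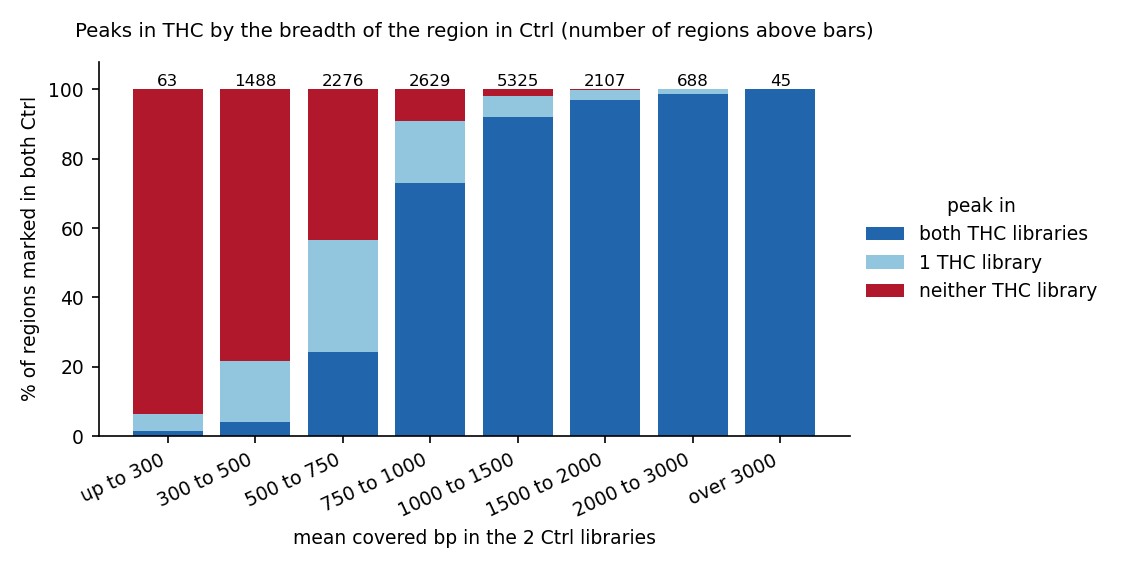
Percent of the regions marked in both Ctrl libraries that had a peak in both, 1 or neither THC library, by mean covered bp in Ctrl. Numbers above the bars count regions. The share in neither falls from 78.4% at 300 to 500 bp to 0 above 2000 bp.

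The control-only share differed by place, and these shares carry no test. Of the 9011 regions within 1 kb of the start of a coding gene, 6.0% were control-only, against 26.1% of 517 at starts of long non-coding RNAs, 15.3% of 2480 at other gene ends, 55.0% of 1734 inside genes and 62.1% of 879 between genes. Regions at coding starts were also broader, with a median of 1187 bp in Ctrl against 591 bp inside and 546 bp between genes. Within the 500 to 750 bp bin the control-only share was 26.9% at coding starts, 60.9% inside genes and 59.5% between genes. At 1000 to 1500 bp the shares were 1.03%, 7.80% and 12.9%. The order of coding starts below the other 2 places thus held within equal Ctrl breadth.

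Seen by gene, 9585 coding genes had a start marked in both Ctrl libraries, and 486 of these (5.07%) were control-only, and no coding start was THC-only. A gene was given the region with the most covered bp within 1 kb of its start, and genes without an entry in the table of starts were placed by either gene end, where 166 of 2221 (7.47%) were control-only. Among long non-coding RNAs, 188 of 1503 starts (12.5%) were. Limiting each library to 11924 peaks left 136 control-only coding genes, 80 of them among the 486. A shorter list adds no THC peak, so a control-only start can leave this class through the loss of its Ctrl peaks. Without Ctrl replicate 2 the count was 836 and without THC replicate 2 it was 1175, with 484 and 486 of the 486 among them. Leaving out a library only loosens the definition of control-only, so keeping these starts follows almost entirely from it.

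The control-only share was also compared by promoter CpG content, with no test. Of the coding starts marked in both Ctrl libraries, those with 0 to 5 CpG in the 300-base window were control-only in 22.0% of 304 cases. The share was 11.8% at 6 to 10 CpG, 6.13% at 11 to 15 CpG, 4.53% at 16 to 20 CpG, 3.13% at 21 to 25 CpG and 3.28% of the 3809 starts above 25 CpG. CpG-poor starts also had narrower regions, with a median of 940 bp at 0 to 5 CpG against 1352 bp above 25 CpG. Among starts with 500 to 1000 bp in Ctrl the share was 27.1% at 0 to 5 CpG and 8.20% at 16 to 20 CpG, but 13.4% above 25 CpG, so within this breadth it did not fall throughout.

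Motif content was compared over the same classes. TATAAA was found in 10.1% of the 486 control-only promoters, 5.45% of the 8344 marked in all 4 libraries and 13.4% of all 17274 coding promoters. GGGCGG was found in 60.7%, 72.6% and 46.9% of these, and TGACTCA in 5.76%, 2.59% and 4.61%. CCAAT was found in 35.0%, 38.6% and 39.4%, and CACGTG in 8.23%, 10.7% and 7.99%. Among starts of 500 to 1000 bp in Ctrl, TATAAA was found in 6.64% of control-only and 6.42% of promoters marked in all 4 libraries, and TGACTCA in 5.24% and 2.92%. These matches are letters in a window and were not tested.

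**Figure D3:**
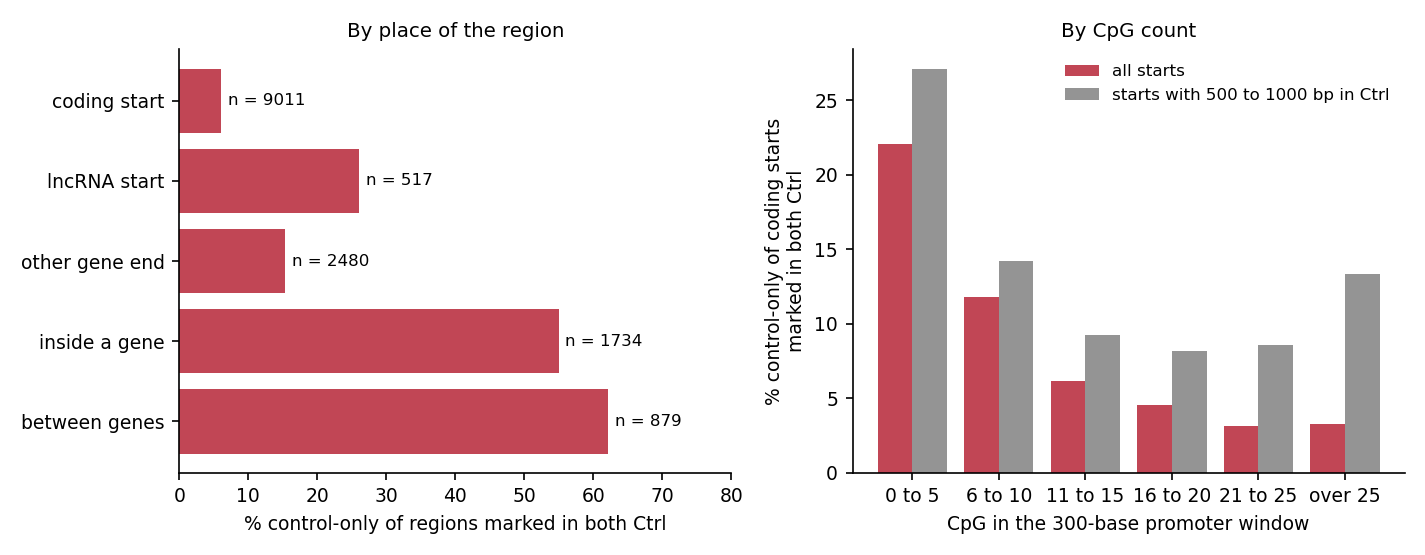
Left, percent control-only of the regions marked in both Ctrl libraries, by place, with the number of regions. Right, percent control-only of the coding starts marked in both Ctrl libraries, by CpG in the 300-base promoter window, for all starts and for starts with 500 to 1000 bp in Ctrl. The share is 6.0% at coding starts and 62.1% between genes, and 22.0% at 0 to 5 CpG.

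Peaks at gene starts were shorter on both sides. Over the 6732 coding starts that lay within a peak in all 4 libraries, the peak reached a median of 455 and 423 bp upstream in Ctrl and 280.5 and 366 bp in THC. Downstream, towards the gene body, it reached 816.5 and 775 bp in Ctrl and 540 and 660 bp in THC. The means were 439 ± 22.6 bp against 323 ± 60.5 bp upstream and 796 ± 29.3 bp against 600 ± 84.9 bp downstream (SD, n = 2). The difference was −116 bp upstream, with −174.5 and −57 bp in batches 1 and 2, and −196 bp downstream, with −276.5 and −115 bp. The groups did not overlap on either side, with an exact permutation p of 0.333 for each. Relative to Ctrl the reach was 0.616 and 0.865 upstream and 0.661 and 0.852 downstream (batches 1 and 2), so the ratios on the 2 sides lay within 0.05 of each other in each batch.

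**Figure D4:**
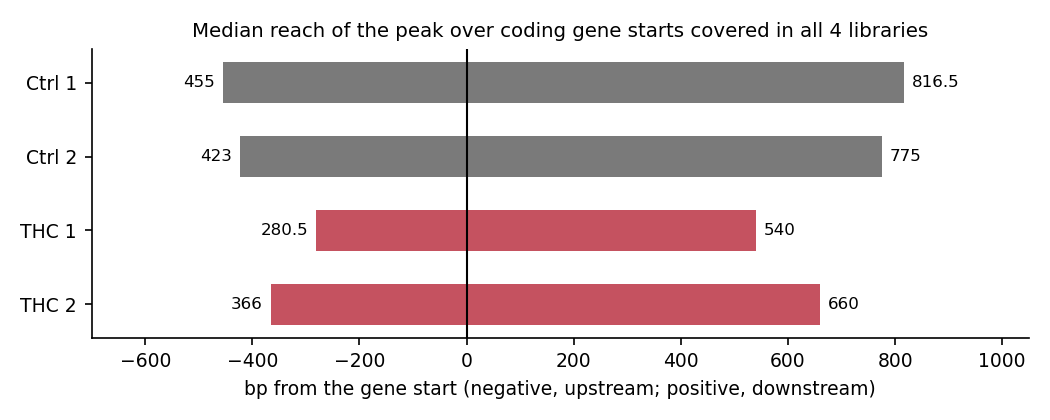
Median reach (bp) of the peak upstream and downstream of 6732 coding gene starts covered in all 4 libraries, 1 bar per library, with the start at 0. Upstream reach is 455 and 423 bp in Ctrl and 280.5 and 366 bp in THC.

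The breadth of each region was then tested with limma on log2(covered bp + 200), with libraries centred on their median over shared regions, so that a change is relative to the typical shared region. The fit used all 6 H3K4me3 libraries, of which the 2 SR2 libraries added to the estimate of spread only. Of 14885 regions marked in at least 2 of the 4 libraries, 0 (0%) were narrower and 0 (0%) wider in THC at an adjusted p under 0.05. At an unadjusted p under 0.05 there were 3131 narrower and 792 wider regions, and the smallest adjusted p was 0.0531. The median change was −0.11 with centring and −0.49 without. The filter admitted 2554 regions by peaks in both Ctrl and neither THC library, but 12 the other way. Much of the excess of narrower regions thus follows from the filter. Among regions marked in all 4 libraries the limma counts at an unadjusted p under 0.05 were 803 narrower and 689 wider, with a median centred change of 0.02. The outcome depended on the settings, since 1901 regions were narrower and 19 wider when the 4 libraries alone were fitted, 2163 and 6 without centring, 1641 and 33 with a pseudocount of 50 bp, and 2932 and 1130 without THC replicate 2. With batch as a replicate block the counts were 0 and 0.

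The coding starts with the smallest p for fewer covered bp in THC did not pass, with adjusted p just above 0.05. Myb, a transcription factor of progenitor cells and a member of the hormone-sensing luminal list, was covered over 1428 and 1484 bp in Ctrl and 351 and 391 bp in THC, a log2 change of −1.16 ± 0.12 (SE, limma adjusted p = 0.0531). It was the one of the 5 that kept a peak in both THC libraries. Tox2, an HMG-box factor, was covered over 1607 and 1162 bp in Ctrl and in neither THC library. Galnt6, which starts mucin-type O-glycans, was covered over 1455 and 1314 bp, Ccrl2, an atypical chemokine receptor, over 1548 and 1185 bp, and Asrgl1, an asparaginase, over 1154 and 1112 bp, each with no peak in THC. Tox2, Galnt6, Ccrl2 and Asrgl1 entered the fit through their Ctrl peaks alone, and their change depends on the pseudocount. All 5 were picked for their small p, so the separation of the groups at them adds no support.

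The 5 with the smallest p in the other direction had similar bp in the 2 groups and did not pass either. Paxbp1, which binds PAX3 and PAX7, was covered over 1238 and 1214 bp in Ctrl and 1225 and 1366 bp in THC, a centred log2 change of 0.45 ± 0.09 (limma adjusted p = 0.0531). Pip4k2a, a phosphoinositide kinase, was covered over 1266 and 1212 bp in Ctrl and 1108 and 1433 bp in THC. Hspa4, a chaperone of the HSP110 family, had 1536 and 1388 bp against 1301 and 1556 bp. The Ctrl and THC values of Paxbp1, Pip4k2a and Hspa4 overlapped, as did those of Spata13 and Sh2b2, and without centring the log2 change was −0.024 for Spata13, −0.032 for Hspa4 and −0.032 for Sh2b2.

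Epithelial identity genes mostly had peaks in both groups. Of the list of epithelial identity and junctions, 15 starts carried the mark in both Ctrl libraries. All 15 had a peak in at least 1 THC library and 14 in both, where 8344 of all 9585 coding starts had one in both. With 5.07% of all coding starts control-only, a count of 0 in 15 is near the background. Krt8 was covered over 1628 and 1629 bp in Ctrl and 1489 and 1490 bp in THC, a centred log2 change of 0.26 ± 0.11 (limma adjusted p = 0.202) that was −0.11 without centring. Epcam was covered over 1017 and 961 bp in Ctrl and 721 and 833 bp in THC, which gave 0.09 with centring and −0.29 without. Krt18, the partner keratin of Krt8, had 1646 and 1276 bp in Ctrl and 0 and 854 bp in THC and its THC libraries thus differed in presence. The median centred change of the list was −0.10, against 0.00 for the 9631 coding starts tested.

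Among hormone-sensing luminal genes 3 of 9 starts were control-only, where the share over all coding starts was 5.07%, and 4 had a peak in both THC libraries. None of the 3 was control-only with 11924 peaks per library or with at least 500 bp required. Esr1, the oestrogen receptor alpha gene, was covered over 563 and 328 bp in Ctrl and by no peak in THC (region chr10:4612199-4612761). Prlr, the prolactin receptor, was covered over 639 and 397 bp in Ctrl, and Greb1, an oestrogen-induced cofactor, over 613 and 281 bp, again with no THC peak. All 3 regions were narrow and weak in Ctrl, at percentiles 11.2, 10.9 and 11 of the −log10 q of regions marked in both Ctrl libraries. Of the other members, Gata3, a luminal master regulator, kept its peak, with 818 and 787 bp in Ctrl and 460 and 540 bp in THC. Cited1, a cofactor of oestrogen receptor, had 1634 and 1603 bp in Ctrl and 0 and 1219 bp in THC. Areg, the growth factor amphiregulin, had 868 and 1011 bp against 0 and 348 bp. All 9 starts had a negative centred change, with a list median of −1.27, but a value for a start without a THC peak depends on the pseudocount. Under quantile normalization Esr1, Prlr, Greb1 and Gata3 had changes of 0.15, 0.078, 0.15 and 0.27, above 0.

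Of 8 luminal progenitor and alveolar starts, 7 had a peak in both THC libraries, 1 in replicate 2 alone and 0 in neither. With 5.07% of all coding starts control-only, 0 of 8 is near the background. Prom1, the membrane protein prominin-1, was covered over 1511 and 1448 bp in Ctrl and 1164 and 1383 bp in THC. Elf5, the alveolar master regulator, was covered over 1323 and 333 bp in Ctrl and 243 and 805 bp in THC, and the groups overlapped. Kit, the stem cell factor receptor of luminal progenitors, was covered over 1254 and 459 bp in Ctrl and 0 and 550 bp in THC. Of 6 genes placed by a gene end, 4 had a peak in both THC libraries and 2 were control-only, where 7.47% of all such genes were. Of the 2, Aldh1a3, an aldehyde dehydrogenase of luminal progenitors, had 877 and 1057 bp in Ctrl and no peak in THC. Sox10, a factor of neural crest and mammary progenitors, had 750 and 584 bp in Ctrl and likewise none in THC.

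Of 6 basal and myoepithelial starts, 3 had a peak in both THC libraries, 2 in THC replicate 2 alone and 1 in neither, where 5.07% of all coding starts were control-only. Jag2, Igfbp5 and Procr were the 3 with a peak in both, as at Procr, the protein C receptor, with 826 and 745 bp in Ctrl and 267 and 499 bp in THC. Krt5 and Krt14, the paired keratins of basal cells, were covered over 1763 and 2103 bp and over 2418 and 2263 bp in Ctrl. In THC replicate 1 neither had a peak, and in THC replicate 2 they were covered over 1040 and 1245 bp. The centred change was −1.72 ± 0.72 for Krt5 and −1.86 ± 0.76 for Krt14 (limma adjusted p = 0.198 and 0.192). Igfbp3, a binding protein of insulin-like growth factors, was the 1 control-only start, with 1464 and 839 bp in Ctrl, and was not control-only with 11924 peaks per library. Lgr5, a Wnt-potentiating receptor of stem cells placed by its gene end, had 615 and 268 bp in Ctrl and no peak in THC.

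Genes of the mesenchymal transition had 4 control-only starts of 13 (all coding starts, 5.07%), 4 with a peak in 1 THC library and 5 with a peak in both. None of the 4 was control-only with 11924 peaks per library. Twist2, a bHLH repressor of mesenchyme, was covered over 877 and 1148 bp in Ctrl, and Snai1, the zinc finger repressor of Cdh1, over 358 and 351 bp, a change that was 0.33 under quantile normalization. Prrx1, a homeobox factor, had 670 and 438 bp and Sparc, a matrix glycoprotein, 496 and 830 bp, all with no peak in either THC library. Twist1 had 1394 and 1308 bp in Ctrl and 0 and 1112 bp in THC, and Vim, the intermediate filament of mesenchyme, 1397 and 300 bp against 0 and 417 bp. The growth factor Tgfb1 and the receptor Tgfbr1 had peaks in all 4 libraries, with 2794 and 2835 bp against 1745 and 2807 bp and with 1472 and 1523 bp against 1139 and 1218 bp. Col1a1, the 1 of the 7 defining fibroblast markers with a region, had 1025 and 1045 bp in Ctrl against 292 and 360 bp in THC, and the part of fibroblasts in this list was not tested.

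Of the stemness and plasticity list, 2 of 10 starts were control-only (all coding starts, 5.07%) and 8 had a peak in both THC libraries. Neither of the 2 was control-only with 11924 peaks per library. Nes, the intermediate filament nestin, was covered over 936 and 1063 bp in Ctrl and Sox2, a pluripotency factor, over 467 and 521 bp, with no peak in THC. Ly6a, which encodes Sca-1 and was placed by its gene end, had 1234 and 1042 bp in Ctrl and none in THC. Broad members kept their peaks in both THC libraries: Klf4 had 3028 and 2837 bp in Ctrl and 2018 and 2792 bp in THC, and Sox4 had 3342 and 2902 bp against 1513 and 2710 bp.

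**Figure D5:**
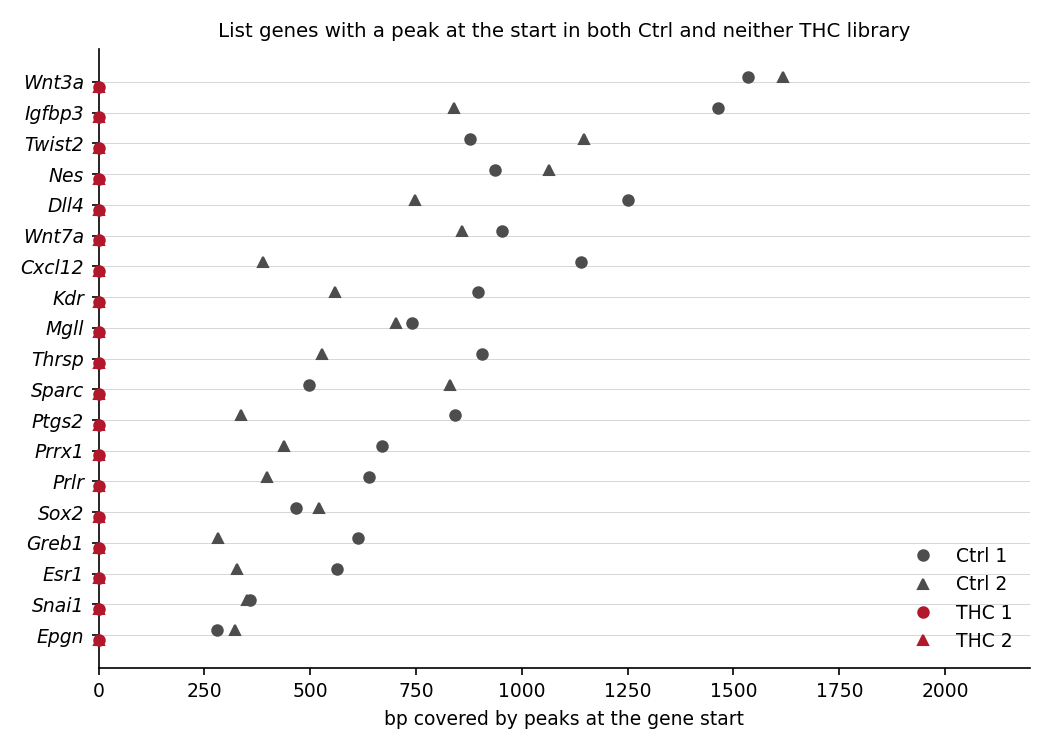
Covered bp at the start of the 19 list genes that were control-only, in each Ctrl (grey) and THC (red) library. Circles are replicate 1 and triangles replicate 2. All THC values are 0, and the Ctrl values run from 280 bp at Epgn to 1618 bp at Wnt3a.

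Among genes of the cannabinoid system, 2 of 11 starts were control-only, 5 had a peak in THC replicate 2 alone and 4 had one in both THC libraries. Over all coding starts 5.07% were control-only and 755 of 9585 had a peak in 1 THC library. Neither of the 2 was control-only with 11924 peaks per library. Cnr2, which encodes the receptor CB2R, had no H3K4me3 region within 1 kb of its start in any of the 4 libraries. Cnr1, which encodes the receptor CB1R, was covered over 985 and 857 bp in Ctrl and 0 and 943 bp in THC, a centred change of −0.85 ± 0.68 (limma adjusted p = 0.450), and the change was 0.28 without THC replicate 1 and −1.96 without THC replicate 2. Mgll, the lipase that degrades 2-arachidonoylglycerol, had 741 and 702 bp in Ctrl and no peak in THC. Ptgs2, the cyclooxygenase that also oxidises endocannabinoids, had 841 and 337 bp in Ctrl and none in THC, in a region shared with Ptgs2os. Faah, the hydrolase of anandamide, had 662 and 793 bp in Ctrl and 0 and 497 bp in THC. Napepld, which releases anandamide from its phospholipid precursor, had 1023 and 995 bp against 682 and 987 bp, and Naaa, another hydrolase, 838 and 808 bp against 645 and 753 bp.

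Of 17 Wnt pathway starts, 2 were control-only (all coding starts, 5.07%), 4 had a peak in 1 THC library and 11 in both. The control-only starts were Wnt3a, with 1535 and 1618 bp in Ctrl, and Wnt7a, with 954 and 859 bp, whose region is shared with Gm30437. Wnt5b, Wnt6, Wnt9a and the factor gene Tcf7 had a peak in THC replicate 2 alone, as at Wnt9a with 1649 and 1738 bp in Ctrl and 0 and 1733 bp in THC. The receptors Fzd1, Fzd4 and Fzd7 and the feedback inhibitor Axin2 were marked in all 4 libraries. Of 15 Notch pathway starts, 14 had a peak in both THC libraries and 1 (6.67%) was control-only, near the share of all coding starts. It was Dll4, a Notch ligand of vessels, with 1251 and 747 bp in Ctrl, in a region shared with Gm14207. Heyl, a Notch target placed by its gene end, had 549 and 636 bp in Ctrl and no peak in THC. Notch1, Notch2, Notch3 and Jag1 were marked in all 4 libraries. With 11924 peaks per library Wnt7a was control-only and Wnt3a and Dll4 were not.

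Several lists of general functions had no control-only start. None was found among 26 of the cell cycle, 20 of ribosomal proteins, 16 of immediate early and MAPK feedback genes, 17 of hypoxia and glycolysis, 22 of sterol synthesis and handling, and 16 writers and erasers of H3K4me3 and H3K27me3. With 5.07% of all coding starts control-only, a count of 0 in lists of this size is near the background. Ezh2, the H3K27 methyltransferase, was covered over 1492 and 1557 bp in Ctrl and 1288 and 1493 bp in THC. The median centred change was 0.05 in the cell cycle list, −0.25 in the hypoxia list and 0.12 in the writers and erasers. Most starts in these lists were broad in Ctrl, with list medians from 1280.5 to 2357.5 bp against 1221 bp for all coding starts.

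Smaller lists held single cases. Thrsp, a lipogenic protein, was the 1 control-only start of 17 for fatty acid metabolism, with 907 and 528 bp in Ctrl. That share of 5.88% is near the 5.07% of all coding starts. Epgn, the ligand epigen, was the 1 of 7 (14.3%) for ERBB receptors and ligands, with 280 and 322 bp, while Egfr and Erbb2 were marked in all 4 libraries. Cxcl12, a stromal chemokine, had 1140 and 389 bp and Kdr, the VEGF receptor of endothelium, 897 and 559 bp in Ctrl. Both are markers of other cell types, each with no peak in THC. By gene ends, Lpl, Cidea, Abcg1, Nlrc5, Heyl, Ramp2, Spi1 and Hoxc6 were control-only as well, with Ctrl values from 296 bp at Spi1 to 1167 bp at Lpl. Of all coding genes placed by a gene end, 7.47% were control-only.

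Outside the lists, the broadest control-only starts reached 1977 bp in Ctrl. Ssbp4 was covered over 1571 and 1534 bp (chr8:70607034-70608625) and Mgst1 over 1977 and 991 bp (chr6:138140246-138142222). Foxn1 had 1923 and 973 bp, Phldb1 1146 and 1370 bp, Nlrx1, a mitochondrial NOD-like receptor, 1229 and 1306 bp, Slc6a4, the serotonin transporter, 1448 and 1068 bp, and Anxa8, an annexin, 1539 and 932 bp. With 11924 peaks per library, 5 of the 29 named control-only starts were still control-only, namely Foxn1, Nlrx1, Slc6a4, Thrsp and Wnt7a. The strongest control-only starts in Ctrl, chosen after their values were seen, included narrow ones and also Nlrx1, at percentile 34.3 of the Ctrl −log10 q. Pex7, a peroxisomal import receptor, stood at percentile 40.8 of the Ctrl −log10 q with 594 and 509 bp, and Hoga1, a mitochondrial aldolase, at percentile 39.3 with 561 and 539 bp.

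The order of the regions by strength within a library was similar between groups. Over the 10203 regions marked in all 4 libraries, Spearman's rho of the −log10 q was 0.946 between the Ctrl libraries, 0.838 between the THC libraries, and 0.850 and 0.909 between Ctrl and THC within batches 1 and 2. These are correlations across regions of the same genome and carry no p. In limma on percentile ranks, 0 regions (0%) were lower and 0 (0%) higher in THC, with 323 and 322 at an unadjusted p under 0.05 and a smallest adjusted p of 0.216. With batch as a replicate block, 0 were lower and 10 higher, with a smallest adjusted p of 0.00420. Leaving out a library gave 8 higher without Ctrl replicate 1, 13 without Ctrl replicate 2 and 3 without THC replicate 1, with 0 lower each time, and 231 lower and 296 higher without THC replicate 2.

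None of the 10 regions called higher in rank with the block lay at a coding start, and all 10 overlapped an H3K27me3 peak of the Ctrl or THC libraries, while 7.10% of the 10203 regions ranked did so. An example is chr11:3172318-3172809, inside a gene, at percentiles 4.94 and 4.18 in Ctrl and 85.1 and 80.3 in THC, where the fold enrichment was 12.2 and 9.39 in Ctrl and 11.6 and 15.6 in THC. A neighbouring pair at chr17:39843156-39846692 and chr17:39847580-39848748 had fold enrichments of 1.92 to 2.67 in all 4 libraries. The H3K27me3 lists held 2708 and 386 peaks in Ctrl and 983 and 70 in THC, so their overlaps rest on lists of very unequal length. The 8 overlapping regions among the 10 with the smallest p for a higher rank overlapped all 4 lists. The list of 70 peaks overlapped only 22 of the 10203 regions. At 1 of the 8, chr11:109011657-109012087, the fold was 15.7 and 13.9 in Ctrl and 13.3 and 13.6 in THC. Whether signal shared by every list of both marks lies behind these calls was not tested.

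Coding starts with the smallest p in rank did not pass. Bahd1, a heterochromatin protein, stood at percentiles 27.6 and 23.9 in Ctrl and 88.7 and 85.7 in THC, a difference of 61.5 ± 10.7 percentile points (limma adjusted p = 0.631). Mprip, a myosin phosphatase partner, stood at 28.7 and 19.8 against 79.8 and 80.5, and Slk, a kinase, at 17.0 and 15 against 60.3 and 66.1. Atp8a1, a lipid flippase, and Smarcc2, a BAF subunit, were the other two. In the lower direction Ppil2, a cyclophilin-like ubiquitin ligase, stood at 48.2 and 48.7 in Ctrl and 13.4 and 9.68 in THC. Tspyl2, a nucleosome assembly protein, stood at 34.8 and 35.2 against 3.48 and 10.5, followed by Parp6, Manea and Adgrg1. These 10 genes were picked for their small p, so the separation of the groups at them follows largely from that choice and adds no support. Ranked by covered bp in place of −log10 q, the difference had the opposite sign at Mprip (−18.6), Slk (−18.7), Ppil2 (7.90), Parp6 (17.1) and Manea (21.6).

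The 12 THC-only regions were short and weak, from 334 to 679 bp long, and none was within 1 kb of a coding start. Of these, 7 lay between genes, 3 inside genes and 2 at other gene ends. In total 9 of 12 overlapped an H3K27me3 peak of at least 1 of the 4 Ctrl and THC libraries, against 7.10% of regions marked in all 4 and 2.08% of control-only regions. The count was 21 without Ctrl replicate 1, 20 without Ctrl replicate 2, 879 without THC replicate 1 and 1004 without THC replicate 2, so nearly all regions found in 1 THC library and in no Ctrl library lacked a peak in the other THC library. The most strongly called of them, chr8:20321474-20321888, had a −log10 q of 11 and 17.1 in THC replicates 1 and 2.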

How the data were processed

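Each library's peaks were deposited as a list called per library. Per the submitters' processing notes, the tools included MACS3, Bowtie2 2.5.4, cutadapt 5.2, bedtools, SAMtools 1.8, Picard and deepTools, on mm10, and other settings are not given in the sources used here. The deposited lists hold a score, a fold enrichment ratio, and −log10 p and −log10 q values of each peak, which are the authors' own. No counts were used, and summit pileups were recovered from the deposited fold and −log10 p, with 100% of them whole within 0.005.

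Peaks on chromosomes 1 to 19 and X that shared 1 bp or more were merged, and the bp covered by each library, its presence and the percentile rank of its strongest −log10 q were taken per region. Starts came from the RefSeq promoter table of GRCm38.p6, which held 17274 of 21631 coding genes and 353 of the 505 list symbols, and the other 152 were placed by either gene end within 1 kb. Breadth and rank were tested with limma 3.58.1 (R 4.3.3, trend, Benjamini-Hochberg over all regions tested, threshold 0.05), and single values per library by exact two-sided permutation. The scripts (Python 3.11.15) were tested on simulated data. Same-numbered libraries share a batch per the labels, and their deviations from the group means correlated at −0.02 over 14885 regions, so batch was fitted as a replicate block in an alternative. Summit pileups over 8084 regions gave a chi-square per degree of freedom of 0.876 between the Ctrl replicates and 0.819 between the THC replicates, below the Ctrl to THC pairs (1.06 to 1.34), while SR2 replicate 1 and THC replicate 1, of different groups, gave 0.751. Since a value below 1 also occurred between groups, this check cannot decide whether the replicates are independent. The replicates' lists differed in length and regions, and each library was counted.

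The members and the 23 gene lists were chosen with earlier results of these data known. Genes were named where they are in a list and control-only, where they are among the 10 broadest control-only starts outside the lists, where they had the 5 smallest p for breadth or rank in each direction, or as fixed anchors. Alternatives changed the peak threshold, list length, overlap, distance, pseudocount, centring, normalization, filter, samples, block and rank measure, or left out a library.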

Additional observations from a re-analysis of the deposited data

How the results depend on the processing

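The ratios of peak number and covered length and both peak extents kept their direction in every alternative run, with ratios without 1 batch of 0.649 to 0.804 for peak number and 0.485 to 0.763 for covered length, and extents without 1 library of −159.25 to −79.5 bp upstream and −256 to −143.5 bp downstream. The count of 2554 control-only regions was 347 with the same number of peaks per library and 775 with at least 500 bp, and 2743 to 6101 without 1 library. The count of 486 coding starts was 136 and 217 under the same 2 settings and 553 to 1175 without 1 library. The 12 THC-only regions were 2 with −log10 q of at least 5, 42 with the same number of peaks, 0 with at least 500 bp and 20 to 1004 without 1 library. The cause of these shifts was not tested, beyond the fewer libraries that a region must satisfy when 1 is left out.

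The limma counts of 0 narrower and 0 wider regions were 1641 and 33 with a pseudocount of 50 bp, 2163 and 6 without centring, 1901 and 19 with the 4 libraries alone, and 19 and 0 with regions marked in at least 1 library. They were 0 and 0 with a pseudocount of 1000 bp, quantile normalization, regions marked in all 4 libraries, the union of 6 libraries, the same number of peaks and the replicate block. Without 1 library they ran from 0 to 2932 narrower and from 0 to 1130 wider. The counts of 0 lower and 0 higher in rank were 0 and 10 with the replicate block, and without 1 library 0 to 231 lower and 3 to 296 higher. The replicate block changed no other call.

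Of 769 values of 73 named genes under 16 alternatives, 748 kept their direction. Most of these genes were named for being control-only or for a small p, so their direction was largely fixed by that choice. The share kept is therefore no support for it. Genes no longer tested under an alternative were not counted, so breadth held 63 genes without centring but 14 without Ctrl replicate 1. Without centring the log2 change turned to −0.024 at Spata13, −0.032 at Hspa4, −0.032 at Sh2b2, −0.29 at Epcam, −0.12 at Ezh2 and −0.11 at Krt8. Quantile normalization, which moved the median change from −0.11 to 0.07, gave 0.078 at Prlr, 0.086 at Sox2, 0.15 at Greb1, 0.15 at Esr1, 0.33 at Snai1, 0.46 at Epgn, 0.27 at Gata3, 0.14 at Spi1 and 0.15 at Lgr5. Ranking by covered bp gave differences of 17.1 at Parp6, 7.90 at Ppil2, 21.6 at Manea, −18.6 at Mprip and −18.7 at Slk, and Cnr1 ran from −1.96 to 0.28 without 1 library. Control-only regions had median Ctrl summit pileups of 16 and 13 against 127 and 95 for regions marked in all 4 libraries, and a missing peak at this depth does not show that the mark is absent.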

Other observations

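The broadest H3K4me3 domains at coding starts, chosen after their values were seen, included those of the next 4 genes. Brd2, a BET reader of acetylated histones, was covered over 5018 and 4566 bp in Ctrl and 1437 and 3729 bp in THC. Dusp7, a MAPK phosphatase, was covered over 4170 and 4046 bp against 1418 and 3968 bp. Cdk6, a G1 kinase, was covered over 3564 and 3569 bp against 2398 and 3352 bp, and Vegfa, the vascular growth factor, over 3654 and 4118 bp against 2012 and 2851 bp. In each of these genes THC replicate 1 was the narrowest of the 4 libraries. The share of control-only regions per chromosome ran from 14.9% on chromosome 6 to 20.5% on chromosome 4.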
